A study of Homo sapiens with 5 samples.

Results

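The 10 miRNAs described here are best known from tissues outside the blood, and they were read in 5 human hematopoietic cell lines: hsa-miR-200a, hsa-miR-200b, hsa-miR-200c, hsa-miR-141, hsa-miR-429 and hsa-miR-205 of epithelia, hsa-miR-122 of the liver, hsa-miR-206 and hsa-miR-133a of muscle, and hsa-miR-375 of pancreatic islets and other endocrine cells. They were picked by name, on their known tissues, as 10 of the 654 human miRNA probes of the panel. The lines were the erythroleukemic K562, the megakaryoblastic Meg-01, the monocytic U937, and Jurkat and Raji, which are lymphoblastic lines of the T and B lineage, with no treatment named in the labels. Total RNA was extracted with Trizol and 100 ng of each line was profiled on the nCounter system, which counts color-coded reporter probes without amplification. Each line was read in 1 sample, so nothing was tested between lines. The intervals given are exact 95% Poisson intervals for counts and conditional binomial intervals for ratios of 2 counts, and both cover counting error only.

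A miRNA is a short RNA that guides the Argonaute protein to messenger RNAs, which it finds mainly through its seed, the bases 2 to 8 from its 5′ end. The miR-200 family holds cells in the epithelial state by repressing the factors ZEB1 and ZEB2, and miR-205 acts with it. miR-122 is the most abundant miRNA of hepatocytes, miR-206 and miR-133a belong to the skeletal muscle program, and miR-375 is known from the insulin-producing beta cell. In blood cells these miRNAs are generally taken as absent or very low, so the question was which of their probes rose above the background of the assay, in which line and by how much.

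The mature sequences are shown because the members come in groups of near-identical RNAs that a hybridization probe has to tell apart. They were taken from RefSeq (GRCh38.p14) for the arm that the unmarked name denotes, since the files give names without arms, and all 10 members were matched. Capitals mark the seed. The miR-200 family has 2 seeds that differ at 1 base, AAUACUG in miR-200b, miR-200c and miR-429 and AACACUG in miR-200a and miR-141. The muscle miRNAs are printed beside their closest relatives of the panel, miR-1 and miR-133b.
hsa-miR-200b: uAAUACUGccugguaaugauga
hsa-miR-200c: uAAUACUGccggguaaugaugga
hsa-miR-429: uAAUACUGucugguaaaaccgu
hsa-miR-200a: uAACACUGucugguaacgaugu
hsa-miR-141: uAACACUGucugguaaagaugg
hsa-miR-206: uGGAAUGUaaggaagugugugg
hsa-miR-1: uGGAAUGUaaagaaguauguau
hsa-miR-133a: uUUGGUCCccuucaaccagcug
hsa-miR-133b: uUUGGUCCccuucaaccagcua
hsa-miR-122: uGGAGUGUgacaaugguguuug

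With positions counted from the 5′ end and the first named RNA given first, miR-200b and miR-200c differ by U11G and A22G over their shared length, miR-200a and miR-141 by C17A and U22G, and miR-133a and miR-133b by G22A alone. miR-206 and miR-1 share the seed and differ by G11A, G17A, G21A and G22U. The family also sits together in the genome. The genes of miR-200b, miR-200a and miR-429 lie within 1984 bases at chr1:1167104-1169087, inside the non-coding host gene MIR200BHG, and those of miR-200c and miR-141 within 493 bases at chr12:6963699-6964191, inside MIR200CHG. The gene of miR-206 lies at chr6:52144349-52144434, and that of miR-133b next to it, both within 4693 bases. Mature miR-133a comes from 2 genes, at chr18:21825698-21825785, inside the protein-coding gene MIB1, and at chr20:62564912-62565013. miR-122 is at chr18:58451074-58451158, miR-205 at chr1:209432133-209432242 and miR-375 at chr2:219001645-219001708.

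Background was judged in each line by itself. The threshold was set 2 SD above the mean of the 8 negative control probes, which have no target in the sample. Where 5 values stand without names, they follow the order Raji, Jurkat, U937, K562 and Meg-01. The threshold stood at 45.9 raw counts in Raji, 35.0 in Jurkat, 34.9 in U937, 34.6 in K562 and 42.1 in Meg-01. The human probes summed to between 66892 counts, in Raji, and 130048, in Jurkat. The blood-cell miRNA miR-142-3p had 7436 to 32907 raw counts, far above the threshold in every line. Other blood markers followed the labels in part. The lymphoid miRNA miR-150 had 1030 counts in Jurkat but 21 in Raji, the B-lineage line, and 13 to 20 in the other lines, and the erythroid miR-451 and miR-144 were above the threshold in Meg-01 and K562 and in no other line. Both were higher in Meg-01, at 129 and 981 counts, than in the erythroleukemic K562, at 59 and 216. The myeloid miR-223 had 2682 counts in U937, but also 3269 in Meg-01, 1684 in K562 and 732 in Jurkat, with 62 in Raji.

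hsa-miR-206 was above the threshold in all 5 lines, and each of the other 9 members was below it in most or all lines or above it by 8.98 counts at most. Of the 50 pairs of a member and a line, 11 (22.0%) were above the threshold, against 27.0% of the 3270 pairs over all human probes. miR-206 accounted for 5 of the 11 and the other members for 6 of their 45 pairs (13.3%). Those 6 pairs had Poisson intervals that reached below the threshold, so only the 5 counts of miR-206 were separated upward from it at this depth. Closest below the threshold were miR-122 with 31 counts and miR-200a and miR-200b with 30 each in U937, and miR-375 with 30 in Jurkat. The intervals of 22 pairs covered the threshold and those of 23 lay wholly below it.

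By line, 1 member was above the threshold in Meg-01, where 27.2% of all human probes were, and 5 in Jurkat, where 35.0% were. In Raji it was 2 members against 17.0% of the probes, in U937 1 member against 28.3% and in K562 2 members against 27.5%. In Jurkat the members above the threshold were miR-200b, miR-200c, miR-429 and miR-122 beside miR-206. Jurkat did not lead under every rule, since Meg-01 and Jurkat had 5 members each without the highest negative control, and all lines had 1 with a threshold from probes for miRNAs of viruses other than Epstein-Barr virus. Its negative controls had the smallest SD of the 5 lines, 6.14 counts, against 10.9 in Meg-01 and 11.4 in Raji.

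**Figure D1:**
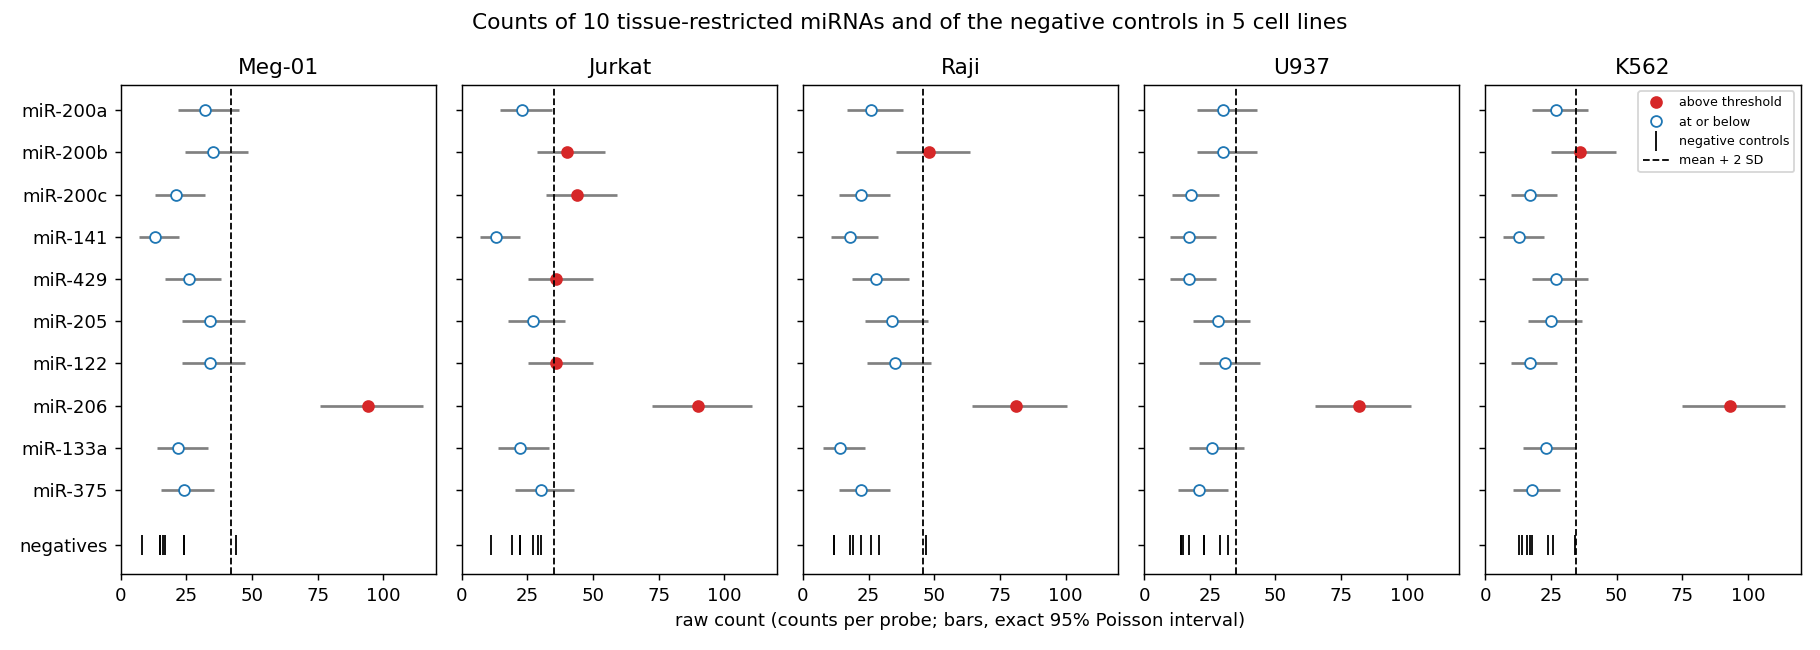
Raw counts per probe (x axis) of the 10 miRNAs in each of 5 cell lines, 1 sample per line, with exact 95% Poisson intervals as bars, the 8 negative controls as ticks and the threshold as a dashed line. Filled red points are above the threshold; miR-206 is the only miRNA whose whole interval lies above it, in each of the 5 lines.

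Among the epithelial members, miR-200b came closest to being present in several lines. Its raw count was 48 in Raji, 40 in Jurkat, 30 in U937, 36 in K562 and 35 in Meg-01. It was above the threshold in Jurkat, Raji and K562, by 4.98, 2.14 and 1.38 counts. One negative control, NEG_B, had counts of 47, 30, 32, 34 and 44, and was the highest negative control of every line. miR-200b thus exceeded that control in 3 of 5 lines and fell short of it in Meg-01 and U937.

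miR-200c had the widest spread of raw counts between lines relative to its lowest line among the members. Its raw count was 44 in Jurkat (95% interval 32.0 to 59.1), against 17 in K562, 18 in U937, 21 in Meg-01 and 22 in Raji. It was the only member whose 5 raw intervals had no value in common. The counts outside Jurkat lay wholly below the threshold, so a fold against them is a fold against background. The raw ratio of the highest to the lowest line was 2.59 (1.45 to 4.83), while the negative control NEG_H, with 8 to 23 counts, reached 2.88 (1.24 to 7.43). After scaling to the 100 highest miRNAs, Jurkat and Raji no longer differed beyond counting error, with 35.4 and 34.7 scaled counts. The Raji value was a scaled background count, below its scaled threshold of 72.4, against 28.2 in Jurkat. Jurkat over K562 was then 1.70 (0.954 to 3.18), over Meg-01 2.28 (1.32 to 4.03) and over U937 1.89 (1.07 to 3.47). Scaled to the positive controls of the assay instead, Jurkat over Raji was 1.87 (1.10 to 3.27), and the ratios of Jurkat to the other lines also excluded 1. In Jurkat the count passed the threshold by 8.98 counts, but its interval still covered it. miR-141, from the same short cluster as miR-200c, had 13 counts in Jurkat and was not raised beside it.

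The other members of the family stayed low. miR-429 had 28 counts in Raji, 36 in Jurkat, 17 in U937, 27 in K562 and 26 in Meg-01, and was above the threshold in Jurkat only, by 0.979 counts. miR-200a, from the same cluster as miR-200b and miR-429, had 26, 23, 30, 27 and 32 counts and was below the threshold in each. miR-141 was low throughout, with 18, 13, 17, 13 and 13 counts, below the mean of the negative controls in all 5 lines. Its intervals lay wholly below the threshold in each. Over the 5 members of the family, 5 of 25 pairs were above the threshold, against the 27.0% over all human probes given above, and the sum of their counts ran from 112 in U937 to 156 in Jurkat. No line had all members of a cluster above its threshold. miR-205, which has no relative on this list, had 34 counts in Raji, 27 in Jurkat, 28 in U937, 25 in K562 and 34 in Meg-01. It was below the threshold in every line, and each of its 5 intervals reached across it.

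The liver miRNA miR-122 was read at 35 counts in Raji, 36 in Jurkat, 31 in U937, 17 in K562 and 34 in Meg-01. It passed the threshold in Jurkat alone, by the same 0.979 counts as miR-429. K562 was the low line, and its count lay below its negative control mean of 20.3, so no fold is given. The endocrine miRNA miR-375 had 22, 30, 21, 18 and 24 counts. It was below the threshold in all 5 lines, and below the negative control mean in Raji and K562.

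Of the muscle miRNAs, miR-133a was low. It had 14, 22, 26, 23 and 22 counts, below the threshold in each. miR-206 was far higher. Its raw count was 81 in Raji (64.3 to 101), 90 in Jurkat (72.4 to 111), 82 in U937 (65.2 to 102), 93 in K562 (75.1 to 114) and 94 in Meg-01 (76.0 to 115). These counts were 1.77, 2.57, 2.35, 2.69 and 2.23 times the threshold of the line, and 5.09, 11, 8.73, 10.1 and 6.78 SD above the mean of its negative controls. No line stood out, and the lowest interval bound, 64.3 in Raji, exceeded the highest single negative control, 47.

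**Figure D2:**
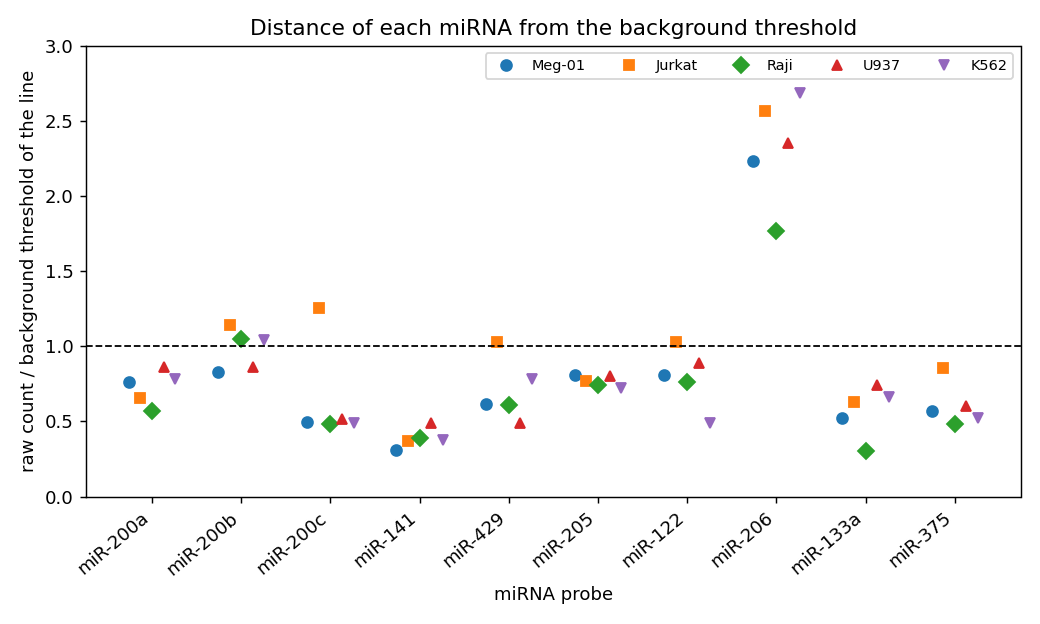
Raw count divided by the background threshold of the line (y axis) for each of the 10 miRNAs (x axis), with 1 symbol per cell line and a dashed line at 1. Only miR-206 is above 1 in all lines, at 1.77 to 2.69; the 6 other points above 1 lie between 1.03 and 1.26.

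The raw count of miR-206 was nearly the same in every line. Its highest over its lowest line was 1.16 (0.853 to 1.58), and the intervals of all 10 pairs of lines covered 1. Over the same lines the summed human counts varied from 66892 to 130048. Of all human probes, 88 (13.5%) were above the threshold in all 5 lines, and their median ratio of highest to lowest raw count was 2.43. Only 1 of them, miR-26b with 56 to 63 counts, had a smaller ratio than miR-206, whereas 8 of the 88 did after the scaling described next.

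Scaling changed this. When counts were scaled to the 100 highest miRNAs, which multiplied Raji by 1.58 and Meg-01 by 0.741, miR-206 became 128 scaled counts in Raji, 72.5 in Jurkat, 85.6 in U937, 114 in K562 and 69.7 in Meg-01. Raji was then the highest line and Meg-01 the lowest, with a ratio of 1.83 (1.35 to 2.50), and the scaled intervals of 5 of 10 pairs of lines excluded 1. Some negative controls had the same highest and lowest lines after this scaling. NEG_G went from Jurkat highest and K562 lowest in raw counts to Raji highest and Meg-01 lowest, at 2.38 (1.17 to 4.87). NEG_C, already highest in Raji in raw counts, also had Raji highest and Meg-01 lowest, at 2.57 (1.45 to 4.62). With the positive controls, which are added in equal amounts to each sample, as the scale, the ratio was 1.30 and U937 was the highest line. Scaled to the 5 housekeeping mRNAs, K562 was the highest and Meg-01 the lowest, at 2.27-fold. The order of the lines was therefore not settled, whereas the threshold was scaled with the counts and the position of miR-206 above it was not affected. Over all members, the raw intervals of 8 of 100 ratios between 2 lines excluded 1, against 20.7% over all human probes and 3.75% over the negative controls. After scaling to the 100 highest miRNAs 27 did, 22 of them with Raji, against 37.0% and 23.8%.

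**Figure D3:**
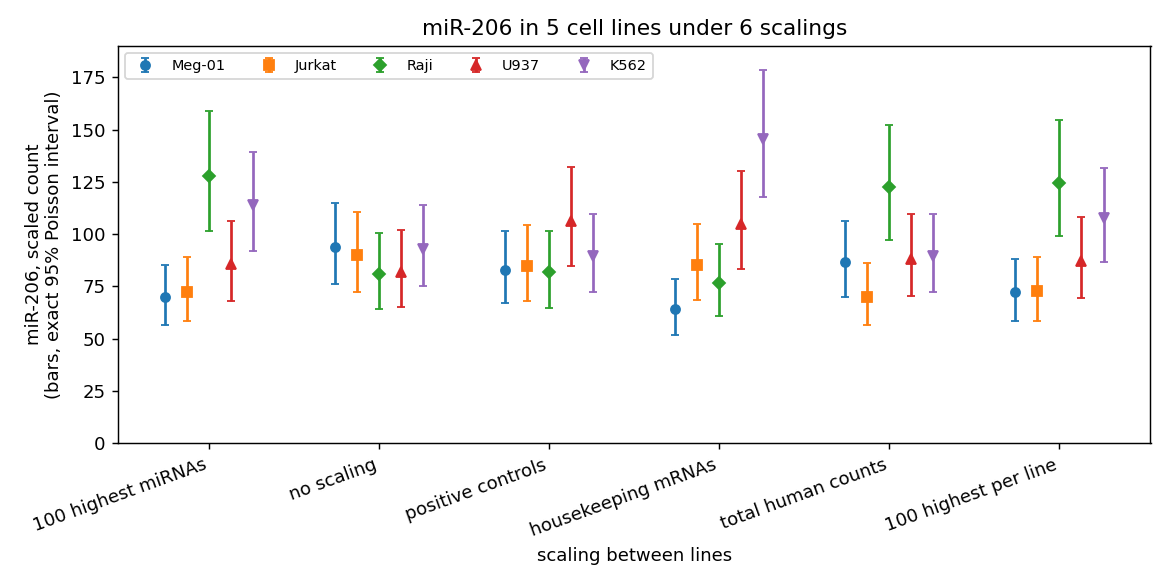
Scaled count of miR-206 (y axis, with exact 95% Poisson intervals scaled alike) in 5 cell lines, 1 sample each, under 6 ways of scaling between lines (x axis). Raw counts lie between 81 and 94, while scaling to the 100 highest miRNAs places Raji at 128 and Meg-01 at 69.7, and scaling to housekeeping mRNAs places K562 highest.

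The control probes give a scale for these counts. The positive control at 0.5 fM read 25 to 59 raw counts over the lines and that at 2 fM read 195 to 254, so miR-206 lay between them in each line, while the 9 other members, at 13 to 48 counts, overlapped the 0.125 fM control (20 to 40), the 0.5 fM control and single negative controls (8 to 47). The 0.5 fM control was itself below the threshold in Raji, at 38 counts against 45.9, and in U937, at 25 against 34.9. In Raji the 0.125 fM control read higher than it, at 40. A count below the threshold therefore does not show that a miRNA was absent. Counts of different probes depend on how well each captures its target and were not converted to amounts. In rank among the 654 human probes, miR-206 was placed at 61 in Raji, 85 in Jurkat, 77 in U937, 66 in K562 and 92 in Meg-01. miR-141 was placed between 517 and 608.

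Other miRNAs of the muscle program and near-identical sequences were read on the same panel. miR-1, which shares the seed of miR-206, had 33 counts in Raji, 35 in Jurkat, 24 in U937, 12 in K562 and 33 in Meg-01, and was below the threshold in every line, in Jurkat by less than 1 count. miR-133b, the genomic neighbour of miR-206, had 31, 31, 33, 39 and 42 counts and was above the threshold in K562 only, although less than 1 count below it in Meg-01. The cardiac and slow-muscle miRNAs miR-208b and miR-499-5p were above it in no line, and miR-208a, with 26 to 48 counts, in Jurkat and U937. None of these 5 probes was above the threshold in all lines, as miR-206 was. The part of probe background in the miR-206 count was not tested.

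The human probes nearest to miR-206 in level over the 5 lines, by the mean absolute difference of log2 scaled counts, were miR-548g at 0.083, miR-1283 at 0.15 and miR-140-5p at 0.28. miR-548g had 82 raw counts in Raji, 84 in Jurkat, 76 in U937, 92 in K562 and 106 in Meg-01. The likeness rests on 5 samples, and the scaling factor of a line cancels in it.

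Further miRNAs known for other tissues were listed to set the members against, and 16 of 17 were on the panel. Over these 16, the number above the threshold was 4 in Raji, 7 in Jurkat, 6 in U937, 6 in K562 and 5 in Meg-01, with 8 above it in no line and 2 in all. The counts by line were 25%, 43.8%, 37.5%, 37.5% and 31.3% of the 16, against 17.0%, 35.0%, 28.3%, 27.5% and 27.2% of all human probes. Of the 654 human probes, 346 were above the threshold in no line and 88 (13.5%) in all. The 2 listed miRNAs above it in all lines were the epithelial and sensory miR-96, with 283 counts in Raji to 1549 in K562, and the gut and liver miR-192, with 108 in U937 to 138 in Jurkat. The epithelial miR-183, with 40 to 151 counts, and miR-203, with 36 to 47, were above the threshold in all lines but Raji. The neural miR-9 ranged from 31 counts in K562 to 573 in Jurkat, while the neural miR-124 stayed at 19 to 25. Names associated with another tissue were thus not all low in these lines. In Jurkat, miR-96 with 1116 counts, miR-9 with 573 and miR-7 with 240, a miRNA of endocrine and neural cells, all exceeded miR-206.

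As a group, the 10 members were close to the typical probe of the panel. Their median raw count was 27, 33, 27, 24 and 29, against 27, 28, 26, 24 and 28 over all 654 human probes and 20.5, 22, 20, 17.5 and 16.5 over the negative controls. The panel also carries 46 probes for miRNAs of viruses other than Epstein-Barr virus, and their median was 23.5, 22.5, 20, 19 and 22.5 counts. Of those, 6.52% in Meg-01 and Raji, 21.7% in Jurkat and 8.70% in U937 and K562 were above the threshold, so Jurkat had the largest share of these probes and, under this threshold, the most members above it. The members together took 0.490% of the human counts in Raji (exact binomial 95% interval 0.439 to 0.546), against 0.278% in Jurkat (0.25 to 0.308), the lowest, and 0.319% in U937 (0.284 to 0.357), the next highest. The shares fell and the order below Raji turned once background was removed: after subtracting the negative control mean, Raji had 0.213%, Meg-01 was next at 0.142% and K562 was lowest at 0.117%. Raji had the highest share with a member sum of 328 counts, inside the range of 296 to 361 over the lines, and it had the lowest human total.

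**Figure D4:**
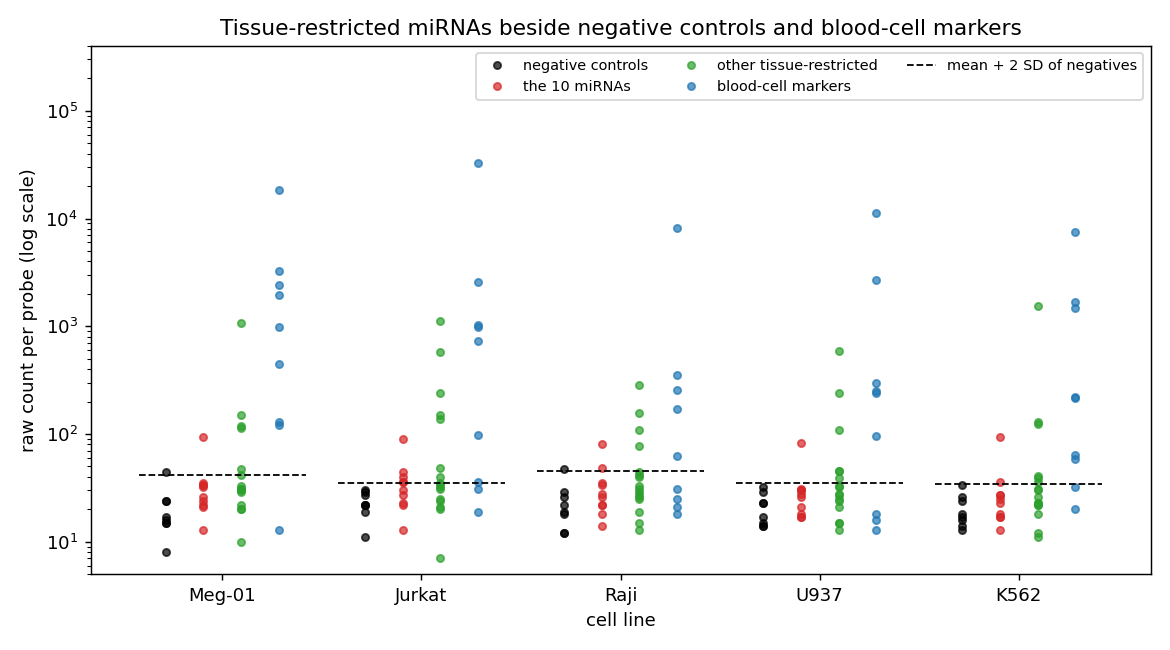
Raw counts per probe on a log scale (y axis) in 5 cell lines for the 8 negative controls, the 10 miRNAs, 16 other miRNAs known for tissues outside the blood and 9 blood-cell marker miRNAs, with the threshold of each line dashed. The 10 miRNAs reach 94 at most, while miR-142-3p, the highest blood-cell marker, lies between 7436 and 32907.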

How the data were processed

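Per the file headers and the values, the authors deposited raw nCounter counts of 753 probes per line, 1 sample each: 654 target human and 80 viral miRNAs, 5 are housekeeping mRNAs, and 8 negative and 6 positive probes are controls. Kit versions v1 and v2 were both used in the study, and which one each line had was not given in the sources used here. The authors also deposited a background-subtracted signal for the human probes, used here only as an alternative. No genome build applies to the counts.

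The threshold lay 2 sample SD above the negative control mean of the line, on raw counts. Scaling used the geometric mean of the 100 highest human miRNAs, as in the methods; they were chosen here by their mean over the lines, a choice the methods do not state. Human counts summed to 66892 to 130048 per line. At this depth a count of 36 had a 95% interval of 25.2 to 49.8. The members, the lists of other miRNAs and the markers were chosen with earlier results of these data known. All members were named, with the 3 probes nearest to any member above the threshold in every line; miR-26b was named after its values were seen. miR-182 and miR-486-5p were not found under these names and were not analysed here. Alternatives were other thresholds, other scalings and background subtraction. The calculations used Python 3.11.15 with scipy 1.17.1 and were tested on simulated data. The simulated negative controls of a line shared 1 mean, so the threshold was not tested under the wider spread between the real control probes.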

Additional observations from a re-analysis of the deposited data

How the results depend on the processing

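The threshold decided how many of the 10 miRNAs were above background; hsa-miR-206 was above it in all 5 lines under each of the 11 other thresholds. In the order Meg-01, Jurkat, Raji, U937 and K562, the mean of the negative controls gave 9, 8, 6, 7 and 6 (36 pairs of the 50, or 72%, against 67.4% of the pairs over all human probes), a raw minimum of 20 counts gave 9, 9, 8, 7 and 6 (39 pairs, 78% against 74.3%) and a minimum of 30 gave 5, 6, 4, 4 and 2 (21 pairs, 42% against 42.6%). Leaving out the highest negative control gave 5, 5, 4, 2 and 2 (18 pairs, 36% against 39.9%). The mean plus 3 SD gave 1, 2, 1, 1 and 1 (6 pairs, 12% against 20.6%). The mean plus 2 SD of probes for viruses other than Epstein-Barr virus, and the demand that the lower interval limit pass the threshold, each gave 1 per line (5 pairs, 10%, against 19.8% and 18.3%). Deposited signals above 2 SD gave 1, 6, 2, 1 and 1 (11 pairs, 22% against 29.1%). A threshold from all 40 negative control values, chosen after seeing the data, gave 1, 3, 2, 1 and 1 (8 pairs, 16% against 26.4%). The highest negative control as threshold gave 11 pairs, as the reported rule did, against 29.2%.

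The ratio of the highest to the lowest line for hsa-miR-206, 1.83 as reported, was 1.16 without scaling and 1.30 with the positive controls, outside its counting interval, and inside it under the 5 other settings. Its level moved outside the interval in Meg-01 to 94 without scaling, 86.7 with total human counts, 38.5 after subtracting the threshold and 54.6 after subtracting the negative control mean. In Jurkat it became 90, 44.3 and 54.2 without scaling and after these subtractions. In Raji it was 81 without scaling, 81.7 with positive controls, 76.6 with housekeeping mRNAs, and 55.5 and 91.4 after the subtractions. In U937 it was 106 with positive controls, and 49.2 and 63.8 after the subtractions. In K562 it was 89.3 with positive controls, 146 with housekeeping mRNAs, 89.4 with total human counts, and 71.4 and 89.0 after the subtractions.

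The share of the human counts taken by the 10 miRNAs fell in every line once background was removed. In the order of lines above it was 0.0571%, 0.0632%, 0.0775%, 0.0609% and 0.0669% after subtracting the threshold, 0.142%, 0.124%, 0.213%, 0.125% and 0.117% after subtracting the negative control mean, and 0.142%, 0.169%, 0.213%, 0.125% and 0.102% in the deposited signals. With 1 sample per line no replicate could be left out, and the counting intervals of 22 of the 50 pairs covered the threshold.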

Other observations

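The constant that the authors subtracted from the raw counts to make the deposited signals was recovered as the difference of both tables. In Meg-01, Raji and U937 it was 20.4, 23.1 and 20.9, the mean of the negative controls of that line. In Jurkat it was 16.3 against a negative control mean of 22.8, and in K562 it was 22.8 against 20.3. The value subtracted in K562 equalled the negative control mean of Jurkat. With these constants, 9 of the 10 miRNAs had a deposited signal above 0 in Meg-01 and in Jurkat, 7 in U937 and 6 in Raji and in K562. Over all human probes the share above 0 was 72.9% in Meg-01, 87.2% in Jurkat, 67.9% in U937, 61.9% in Raji and 55.8% in K562. hsa-miR-133a lay below the Jurkat negative control mean, at 22 raw counts, and had a deposited signal of 5.75 there.

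NEG_B was the highest of the 8 negative controls in each of the 5 lines, with 30 to 47 raw counts. The next highest was 24 to 29. Without this 1 probe the threshold would have been 32.7 counts in Raji, 33.4 in Jurkat, 30.9 in U937, 28.1 in K562 and 28.2 in Meg-01, and hsa-miR-122 would have been above it in every line but K562, hsa-miR-200b in every line but U937, hsa-miR-205 in Meg-01 and Raji, and hsa-miR-200a in Meg-01. The share of all human probes above the threshold would also have risen, from 27.2% to 49.2% in Meg-01 and from 17.0% to 34.3% in Raji.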
